A study of Mus musculus with 316 samples.

Results

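Brain endothelial cells of the gate labelled pos were divided by whether their library held a read of Vcam1. Of the 316 cells of the series, 155 came from this gate and 145 of those had at least 1000 genes with a nonzero count. In these 145 cells Vcam1 was read in 88 (called Vcam1-read below) and had no read in 57 (Vcam1-unread). The classes were chosen by the Vcam1 count alone, within each of 4 pools, so Vcam1 itself is described and not tested.

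The cells were sorted by flow cytometry from dissociated hippocampi; the mice were C57BL/6 males, 3 months old in the young and 19 months old in the aged groups. Hippocampi of 4 mice were combined in each pool, with 2 pools per age, and no treatment or genetic change is given for any of these groups. Which marker defined the gate is not in the labels, whereas the series title names VCAM1. A cell without a read of Vcam1 is therefore not shown to lack the protein or the transcript.

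VCAM1 is an adhesion molecule of the endothelial surface that binds the integrin VLA-4 on leukocytes and slows them against the vessel wall. Its gene is a classical target of NF-kB in endothelium exposed to cytokines, and the protein can be shed from the cell by metalloproteases. Endothelial cells also differ along the vessel: arterial cells are shaped by Notch signalling, capillary cells carry most of the transport machinery of the blood-brain barrier, and venous cells are the usual site of leukocyte entry.

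Vcam1 (ENSMUSG00000027962.14) spans chromosome 3 from 116109949 to 116129688, build GRCm38, on the minus strand. Its reads per Vcam1-read cell ran from 1 to 8776, with a median of 574. The median was 407 reads in young pool 1, 440 in young pool 2, 575 in aged pool 1 and 605 in aged pool 2. A gap lay at the low end: 9 cells had 1 to 7 reads, 2 of them a single read, and the other 79 had 45 or more. Just outside the gene minimum, the highest cell left out had 990 detected genes, and the lowest kept had 1044. Of the 10 pos cells left out by that minimum, 2 had a Vcam1 read. In the gate labelled neg, 9 of 135 cells with at least 1000 genes had a Vcam1 read. Gm43109, an antisense gene that overlaps Vcam1, was not analysed here, and whether counting used the strand is not given in the sources used here.

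The Vcam1-read and unread cells numbered 19 and 23 in young pool 1, 26 and 19 in young pool 2, 14 and 7 in aged pool 1, and 29 and 8 in aged pool 2. Vcam1 was thus read in 45.2%, 57.8%, 66.7% and 78.4% of the cells of these pools. Reads summed over a class and pool ran from 2194408 to 15599134.

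**Figure D1:**
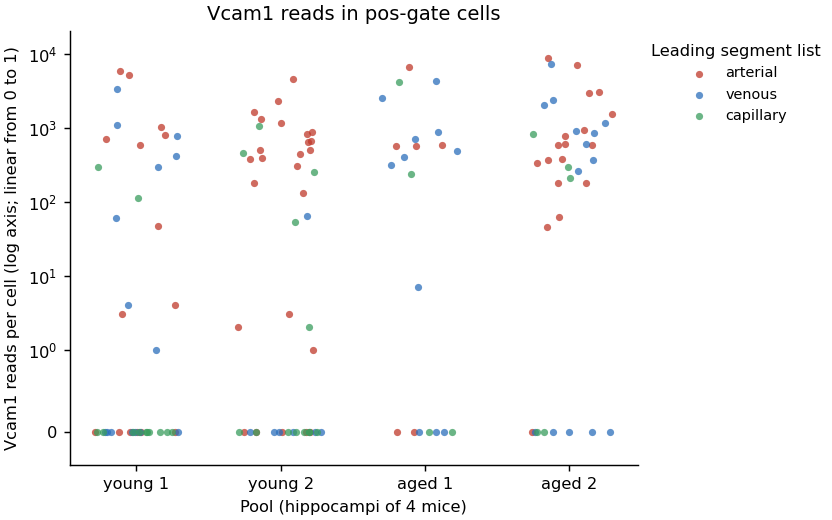
Vcam1 reads of each of the 145 pos-gate cells (log axis, linear between 0 and 1) by pool, coloured by the vessel segment list that leads in the cell. The 57 cells at 0 are the unread class, and 9 of the 88 read cells lie between 1 and 7 reads.

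Library depth can decide whether a transcript gets a read, so it was compared first. Vcam1-read cells had 2003, 2153, 2037 and 1941 detected genes on average in young pools 1 and 2 and aged pools 1 and 2, and unread cells had 2099, 2004, 1860 and 1647. The means over pools were 2033 ± 88.9 and 1903 ± 197 genes (SD, n = 4; two-sided exact permutation p = 0.314). Median reads per cell were 888377, 502820, 472992 and 488540 in Vcam1-read cells and 686134, 542978, 193040 and 572147 in unread cells (exact permutation p = 0.571). Neither measure passed the test, and the classes overlapped in both. The lowest depth was that of the 7 unread cells of aged pool 1. Mitochondrial genes took 3.56% ± 1.52 of reads in Vcam1-read and 3.33% ± 0.179 in unread cells, and the ribosomal RNA gene Rn18s-rs5 took 3.41% ± 0.625 and 3.30% ± 0.630 (SD, n = 4).

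Each cell was then given a leading vessel segment: the arterial, venous or capillary marker list with the highest mean log2(CPM + 1). CPM values are counts scaled to the total of the cell or, further on, of the sum. Vcam1-read cells were led by arterial genes more often than unread cells in 3 of 4 pools and by capillary genes less often in 4 of 4 pools, although neither share passed after correction. The arterial share was 47.4%, 76.9%, 28.6% and 58.6% in the Vcam1-read cells of young pools 1 and 2 and aged pools 1 and 2. In unread cells it was 26.1%, 26.3%, 28.6% and 12.5%. The classes were level in aged pool 1 and separate in the other pools. The difference was 29.5 points (two-sided exact permutation p = 0.0571, Benjamini-Hochberg adjusted p = 0.0857 over 3 shares; 0.25 when exchanged within pools).

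The capillary share was 10.5%, 19.2%, 14.3% and 10.3% in Vcam1-read cells and 43.5%, 42.1%, 28.6% and 25% in unread cells. Every Vcam1-read value lay below every unread value. The difference was -21.2 points (exact permutation p = 0.0286, the smallest that 4 against 4 allows; adjusted p = 0.0857; 0.125 within pools, the smallest that 4 pairs allow). With the 9 cells of 1 to 7 Vcam1 reads left out, the arterial difference was 29.96 and the capillary difference -20.5 points. Each had an adjusted p = 0.0429 by the exact permutation test of 4 against 4 values. That test leaves out that both classes of a pool share their mice, and exchange within pools cannot give a p below 0.125.

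Venous cells showed no such order. Their share was 42.1%, 3.85%, 57.1% and 31.0% in Vcam1-read cells and 30.4%, 31.6%, 42.9% and 62.5% in unread cells (difference -8.31 points, exact permutation p = 0.514). It was higher in Vcam1-read cells of pool 1 of both ages and lower in those of pool 2 of both ages. Pool numbers go with barcode prefixes in the labels, and their part in this was not tested. A leading segment is a range on a score rather than a cell type, and 10 of the 145 cells lay within 0.5 of the next list.

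**Figure D2:**
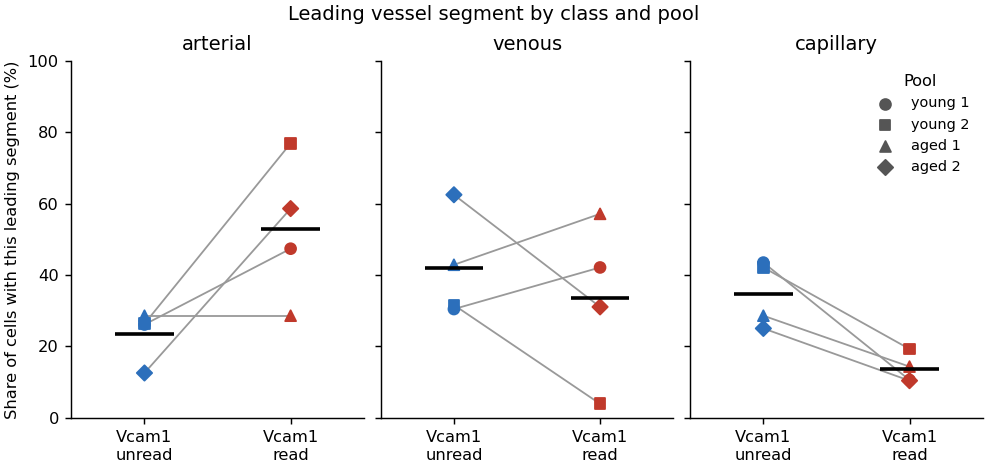
Share of cells led by each vessel segment list (percent of the cells of a pool and class), with 1 symbol per pool, lines joining the classes of a pool and bars at the mean of 4 pools. The capillary shares of Vcam1-read cells, 10.3% to 19.2%, all lie below those of unread cells, 25% to 43.5%.

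Read from the segments, Vcam1 was present in 50 of 64 arterial-led, 26 of 47 venous-led and 12 of 34 capillary-led cells. The shares were 60%, 80%, 66.7% and 94.4% of arterial-led cells in young pools 1 and 2 and aged pools 1 and 2, and 16.7%, 38.5%, 50% and 60% of capillary-led cells. In venous-led cells they were 53.3%, 14.3%, 72.7% and 64.3%. Over the Vcam1-read cells of all pools, median Vcam1 was 1155 CPM in arterial-led, 1136 CPM in venous-led and 560 CPM in capillary-led cells. In aged pool 1 the order turned, at 1556, 2315 and 3514 CPM, the last from 2 cells. In the other pools the capillary-led median lay below the arterial-led median. Median depth was 508178, 599211 and 585266 reads in all the arterial-led, venous-led and capillary-led cells. The order of depth differed between pools: in aged pool 1 the arterial-led cells were the deepest (566084 reads, against 381441 and 527430), and Vcam1 was read more often in venous-led cells there.

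For single genes, the reads of all cells sharing a pool and class were added up, and edgeR was run on the resulting 8 sums. No gene of 10111 passed an adjusted p under 0.05 (0.0%), and the smallest adjusted p was 0.113. An unadjusted p under 0.05 was reached by 848 genes (8.39%), 726 higher (7.18%) and 122 lower (1.21%) in Vcam1-read cells. DESeq2 called 1250 genes (12.4%). Of the 1039 that DESeq2 called higher, 839 had no read in either aged unread sum, and 514 of its 1250 calls were read in fewer than 10 cells. In all, 2538 tested genes had no read in the 15 unread cells of the aged pools, against 512 in the aged Vcam1-read, 438 in the young unread and 388 in the young Vcam1-read cells. The median log2 fold change of all genes was 0.37, so values below are read against it. The genes described next had the same sign in 4 of 4 pools and all fell short of the test.

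The genes with the smallest p that stood higher in Vcam1-read cells included 2 members of the arterial list, Mgp and Tm4sf1. Mgp encodes matrix Gla protein, an inhibitor of vessel calcification. It stood at 3339, 3576, 2058 and 2076 CPM in the Vcam1-read sums of young pools 1 and 2 and aged pools 1 and 2, and at 614, 1287, 663 and 523 CPM in the unread sums. All 4 Vcam1-read values lay above all 4 unread values, as for 2.73% of tested genes (log2 fold change 1.83 ± 0.25, SE; edgeR adjusted p = 0.113). Tm4sf1, a tetraspanin-like protein of the endothelial surface, stood at 3325, 3535, 2587 and 2871 CPM against 1975, 2267, 1220 and 1066 CPM, again without overlap (0.97 ± 0.13, adjusted p = 0.113).

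The sharpest contrast in detection was in Sdc1 and Olfml2a. Sdc1, which encodes the heparan sulfate proteoglycan syndecan-1, stood at 245, 228, 163 and 64.8 CPM in Vcam1-read sums and had no read in any unread sum, at least 282-fold higher against a floor of 3 reads per sum. It was read in 15 of 88 Vcam1-read and 0 of 57 unread cells, which allows a share of up to 5.26%. It had no read in any of 126 Vcam1-unread cells of the neg gate either, which allows up to 2.38%. A single cell held 27.5% of its reads.

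Olfml2a, an olfactomedin-like gene of the extracellular space, stood at 301, 210, 66.4 and 253 CPM in Vcam1-read sums and at 0.866, 2.56, 0 and 0 CPM in unread sums. It was read in 32 of 88 and 2 of 57 cells. The 2 unread cells held 40 reads of Olfml2a, against 11429 reads in the Vcam1-read class. The floor of reads covers counting error only, since the reads carry no molecular identifiers. The limits on shares are 3 divided by the number of cells. They take the cells of all pools as independent and leave out the spread between pools and mice.

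The other genes on the higher side had no read in the aged unread sums, so their fitted fold changes are no bounds and are not given. Tbx1, a T-box transcription factor, stood at 281, 212, 151 and 134 CPM against 89.8, 154, 0 and 0 CPM. Igfbp3, which binds insulin-like growth factors, stood at 622, 673, 131 and 309 CPM against 56.9, 320, 0 and 0 CPM. Bpgm, an enzyme that makes bisphosphoglycerate, stood at 303, 766, 115 and 141 CPM against 22.2, 99.1, 0 and 0 CPM. In young pools these 3 genes were higher in Vcam1-read cells too, whereas Ext2, a heparan sulfate polymerase, was closer there (270 and 163 against 208 and 149 CPM; 136 and 190 against 0 and 0 CPM in aged pools).

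On the lower side, Emcn, Itm2a, Slc6a6 and Ddx5 were read in many cells of both classes, Emcn in 33 of 88 and 33 of 57. Emcn encodes endomucin, a sialomucin of capillary and venous endothelium that hinders leukocyte adhesion. It stood at 245, 138, 220 and 287 CPM in Vcam1-read and at 815, 408, 1191 and 628 CPM in unread sums. The groups did not overlap, as for 0.623% of tested genes in this direction (-1.76 ± 0.38, edgeR adjusted p between 0.31 and 0.571 for the 8 genes named as lower). Itm2a, a membrane protein abundant in brain endothelium, stood at 5184, 4007, 5367 and 4898 CPM against 9794, 8321, 6865 and 5590 CPM, with no overlap. The gap was wide in young pools and narrow in aged pools.

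Slc6a6, the taurine transporter, stood at 923, 1049, 1614 and 1491 CPM in Vcam1-read and 1787, 1966, 2200 and 1639 CPM in unread sums, without overlap. Ddx5, an RNA helicase, stood at 488, 412, 520 and 655 CPM against 761, 595, 1092 and 1067 CPM; the highest Vcam1-read value of Ddx5 exceeded the lowest unread value. Slc6a6 overlaps Gm45828 on the same strand, which had a mean of 5.57 CPM in Vcam1-read sums. Stard8 stood at 53.9, 109, 11.1 and 7.84 CPM against 173, 137, 296 and 188 CPM.

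The remaining 3 genes rested on few cells. Nsmaf, an adaptor of the TNF receptor that is tied to neutral sphingomyelinase, was read in 3 Vcam1-read and 10 unread cells (2.95 ± 5.16 and 174 ± 93.6 CPM; SD, n = 4). Sdcbp, which overlaps Nsmaf on the opposite strand, stood at 848 ± 120 and 714 ± 66.4 CPM. Dhdds, an enzyme of dolichol synthesis, was read in 4 and 9 cells (4.71 ± 8.05 and 64.9 ± 32.7 CPM). Ifi27l2a, an interferon-inducible gene, was read in 5 and 9 cells, at 0.675, 0, 27.5 and 11.5 CPM against 45.4, 14.9, 367 and 215 CPM, with the higher values in aged pools of both classes.

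**Figure D3:**
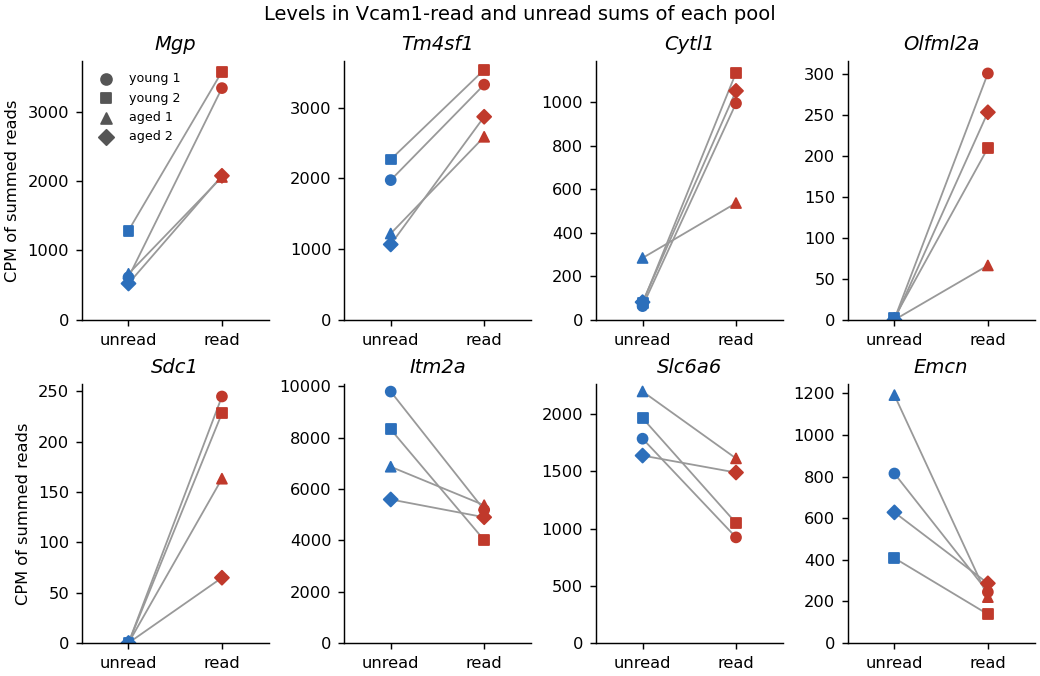
Level of 8 genes (CPM of summed reads) in the Vcam1-unread and Vcam1-read sums of each pool, with lines joining the classes of a pool. Mgp, Tm4sf1, Cytl1, Olfml2a and Sdc1 are higher in the Vcam1-read sum of every pool, and Itm2a, Slc6a6 and Emcn are lower; none passed the edgeR test.

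The arterial list as a whole leaned to Vcam1-read cells. All 24 of its genes in the table were tested, 0 passed, and 23 had a positive log2 fold change, against 62.2% of all genes. The median was 1.75 against 0.37 for all genes. At an unadjusted p under 0.05, 9 members were higher and 0 lower, against 7.18% and 1.21% of all genes. In 4 of 4 pools 13 were higher, against 8.33% of all genes. Cytl1, a secreted cytokine-like protein, stood at 994, 1135, 536 and 1052 CPM in Vcam1-read sums against 63.1, 75.7, 284 and 81.4 CPM, with no overlap (3.03 ± 0.46). The lymphangiogenic growth factor Vegfc stood at 175, 284, 78.7 and 199 CPM against 0, 0.285, 85.5 and 305 CPM. In unread cells, 85.5% of the Vegfc reads came from a single cell.

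Capillary genes leaned the other way, chiefly in young pools. Of 21 capillary genes tested, 0 passed and 15 had a negative log2 fold change; the median was -0.59 over all pools, -1.07 in young and -0.14 in aged pools. Car4, the carbonic anhydrase of capillary surfaces, stood at 331, 582, 465 and 349 CPM against 1429, 914, 335 and 981 CPM, lower in Vcam1-read sums of 3 of 4 pools. The VEGF receptor gene Kdr stood at 58.3, 31.1, 179 and 70.5 CPM against 201, 247, 139 and 135 CPM. Itih5, which binds hyaluronan, had 69.97, 197, 651 and 348 CPM against 465, 469, 782 and 292 CPM. Sgms1, a sphingomyelin synthase, went against the list (1720 ± 158 and 1260 ± 666 CPM; SD, n = 4).

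Of 18 venous genes, 9 had a positive and 9 a negative log2 fold change (median 0.05), and 0 had an unadjusted p under 0.05. Lrg1, a secreted glycoprotein of venous endothelium, stood at 659 ± 304 CPM in Vcam1-read and 446 ± 354 CPM in unread sums (SD, n = 4). Lcn2, an iron-binding lipocalin, and the apelin receptor gene Aplnr had SDs in unread sums above their means.

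Notch pathway genes, which act in arterial fate, leaned to Vcam1-read cells without a member past the test. Of 14 tested, 13 had a positive log2 fold change, against 62.2% of all genes, with a median of 0.64 against 0.37. An unadjusted p under 0.05 was reached by 0, and 3 were higher in 4 of 4 pools, against 8.33% of all genes. Notch1, Notch4, Dll4, Jag1, Hey1 and Hey2 are on the arterial list too, so the lean is not separate from that of the arterial list. The ligand gene Dll4 stood at 70.5, 362, 79.6 and 224 CPM in Vcam1-read sums against 68.3, 0.19, 45.3 and 12.2 CPM. A second ligand gene, Jag2, stood at 125, 211, 93.2 and 140 CPM against 106, 75.8, 12.1 and 0 CPM. The target Hey2 and the feedback inhibitor Nrarp were read in few cells, 11 and 10 in all. The per-cell Notch score was higher in Vcam1-read cells of 4 of 4 pools, by 0.27, 0.87, 0.35 and 0.75 on the log2(CPM + 1) scale.

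Among lists of genes that work beside VCAM1, the adhesion list stood near all genes and the list of partners and sheddases stood lower. Of 18 tested genes of leukocyte adhesion and recruitment, 14 had a positive log2 fold change with a median of 0.44, near that of all genes, and 0 passed. Cx3cl1, a membrane-bound chemokine, stood at 610, 463, 557 and 376 CPM in Vcam1-read sums against 95.6, 158, 431 and 414 CPM, so its gap lay in the young pools. Alcam and Jam3, 2 further adhesion genes, were read in 7 and 5 Vcam1-read cells and in 0 unread cells. Cd34, the sialomucin of endothelial surfaces, stood at 1432, 1249, 1276 and 1084 CPM against 1179, 1153, 2720 and 2144 CPM. The 14 genes of VCAM1 partners and sheddases had a median of 0.04, against 0.37 for all genes. On mean log2(CPM + 1) per cell the order turned, at 0.36 against 0.05. Among them Ezr, a linker to the actin cortex, stood at 53.01 ± 9.99 and 150 ± 112 CPM (SD, n = 4).

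Of 23 genes of the NF-kB pathway and its targets, 15 had a positive log2 fold change with a median of 0.40, and 0 passed. Nfkb2, an NF-kB subunit, was read in 7 Vcam1-read and 0 unread cells. Birc3, an NF-kB target that inhibits apoptosis, was read in 9 and 3 cells. The per-cell score of this list was higher in Vcam1-read cells of 4 of 4 pools, at 1.65 ± 0.14 against 1.44 ± 0.10 (mean log2(CPM + 1); SD, n = 4). The difference was 0.21, with 0.06 in aged pool 2. This was not particular to NF-kB. Also higher in 4 of 4 pools were the Notch (0.56), senescence and p53 (0.48), haemostasis (0.36), shear response (0.36) and microglia and macrophage (0.13) scores. The interferon response list (23 genes) had a median of 0.01. It held members on both sides: the RNA sensor gene Ifih1 stood at 151, 165, 88.0 and 156 CPM in Vcam1-read sums against 83.8, 54.6, 0.432 and 0 CPM, and Usp18, a brake on interferon signalling, at 73.6, 115, 157 and 114 CPM against 354, 150, 871 and 252 CPM. Class I antigen presentation genes (20 genes) had a median of 0.05.

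Barrier transporter genes had a median of -0.09, with 11 of 26 positive. Slco1a4, an organic anion transporter, stood at 1800, 1408, 1389 and 1861 CPM in Vcam1-read sums against 2657, 2170, 1595 and 2927 CPM. Of 22 matrix genes, 5 were higher at an unadjusted p under 0.05, against 7.18% of all genes, and 0 passed. Mgp, Eln and Fbln5 are on the arterial list too, so the matrix list is not separate from it. The per-cell matrix score differed by -0.03, 1.17, 0.02 and 0.90 in young pools 1 and 2 and aged pools 1 and 2. Among the 5 higher genes, fibronectin (Fn1) stood at 1531 ± 311 and 967 ± 267 CPM and elastin (Eln) at 358 ± 258 and 118 ± 68.6 CPM (SD, n = 4). Immediate early and dissociation stress genes, which respond to handling, had a median of -0.35 with 5 of 25 positive. Their per-cell score was lower in Vcam1-read cells of 4 of 4 pools (3.08 ± 0.27 against 3.37 ± 0.36), and its part in the other results was not tested. Cytoplasmic ribosomal protein genes had 72 of 83 positive, against 62.2% of all genes, with a median of 0.27, below the 0.37 of all genes. On mean log2(CPM + 1) per cell the order turned, at 0.22 against 0.05. Of these ribosomal genes, 20 were higher in 4 of 4 pools, against 8.33% of all genes.

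**Figure D4:**
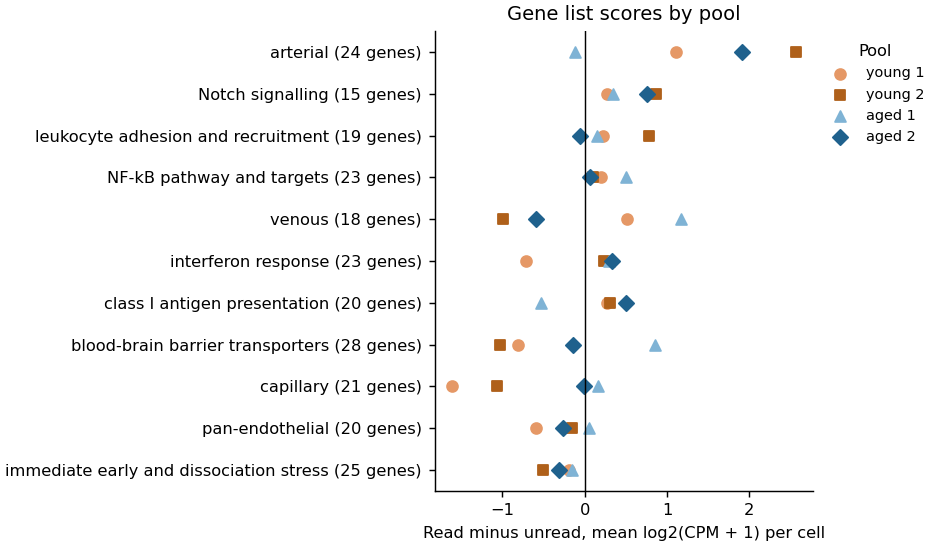
Difference in gene list score between Vcam1-read and unread cells (mean log2(CPM + 1) per cell, averaged per pool and class) for 11 lists, with 1 symbol per pool. Notch and NF-kB scores lie above 0 and the immediate early score below 0 in 4 of 4 pools, while the arterial score is above 0 in 3 pools and at -0.12 in aged pool 1.

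The label of endothelial cells was checked with defining markers. Cldn5, a tight junction protein, was read in 86 of 88 Vcam1-read and 56 of 57 unread cells, and Pecam1 in 84 and 49. The pan-endothelial score was 7.17 ± 0.28 and 7.41 ± 0.18 (SD, n = 4), and Ocln, a tight junction gene of that list, stood at 741 ± 141 and 468 ± 92.9 CPM. On lists of other cell types with at least 3 genes, 2 Vcam1-read and 1 unread cell scored above pan-endothelial. The microglia and macrophage list scored 0.15 to 0.54 in Vcam1-read and 0.11 to 0.40 in unread cells, on 12 genes. The smooth muscle list (3 genes) scored 0.56 to 2.33 and 0.40 to 1.23, the pericyte list (2 genes) 0.03 to 0.30 and 0.00 to 0.70, and the fibroblast list (4 genes) 1.06 to 1.36 and 0.99 to 1.65. The summed reads held 4 of the 12 microglia genes, 1 of the 2 pericyte genes, 2 of the 3 smooth muscle genes and all 4 fibroblast genes above the low-count filter. The microglial receptor gene P2ry12 had no read in 3 of 4 Vcam1-read and 2 of 4 unread sums. Rgs5, a pericyte marker, was read in 3 Vcam1-read and 5 unread cells, and the fibroblast collagen gene Col3a1 in 6 and 0. Mylk, a smooth muscle marker also found in endothelium, stood at 133 ± 86.6 and 38.1 ± 18.6 CPM, and its part in the results was not tested.

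Vessel segment moved with the class, so genes were also compared among cells led by the same segment list. Of the 12 combinations of pool and segment, 6 held at least 3 cells of both classes: arterial in both young pools, venous in young pool 1 and both aged pools, and capillary in young pool 2. Averaged over these, the arterial list stood 0.03 below all genes in median log2 difference of mean CPM. It had stood 1.39 above in the edgeR fit of all cells, which is a different measure. This same list set the segments, so matching on them levels it in advance, and the fall is no separate result. Arterial-led cells of the aged pools did not enter, since only 2 and 1 of them were unread. The segment lists contain Mgp, Tm4sf1, Cytl1, Vegfc, Gkn3 and Car4, so the levels of those genes helped to set the segments.

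Mgp and Itm2a varied more between segments than between classes. In arterial-led cells Mgp averaged 5944 CPM in 9 Vcam1-read against 2080 CPM in 6 unread cells of young pool 1, but 4804 CPM in 20 against 5025 CPM in 5 cells of young pool 2. It was read in 10 of 26 Vcam1-read and 10 of 21 unread venous-led cells, and in 1 of 12 and 0 of 22 capillary-led cells. Itm2a, which is on none of the 3 segment lists, averaged 546 and 914 CPM in arterial-led cells and 9614 and 10010 CPM in venous-led cells. In capillary-led cells Itm2a averaged 11275 and 11679 CPM. With segments balanced, the log2 difference of Itm2a was 0.01, that of Mgp -0.16 and that of Tm4sf1 -0.31, where all genes had a median of 0.40.

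Olfml2a and Sdc1 remained apart among arterial-led cells, and Cytl1 did so in mean level. Olfml2a was read in 32 of 50 Vcam1-read and 2 of 14 unread arterial-led cells, and in no venous- or capillary-led cell. Its mean was 500.0 against 29.4 CPM in young pool 1 and 267 against 9.5 CPM in young pool 2. Sdc1 was read in 15 of 50 and 0 of 14 arterial-led cells, and 0 of 14 allows a share of up to 21.4%. Cytl1 averaged 1941 against 228 CPM in young pool 1 and 1640 against 366 CPM in young pool 2, though it was read in 32 of 50 and 6 of 14 arterial-led cells. Those means rest on few cells: 3 of 9 and 2 of 6 had a read in young pool 1, and 11 of 20 and 1 of 5 in young pool 2. In aged pool 1 Cytl1 was read in 2 of 4 and 2 of 2. With segments balanced its log2 difference was 1.33, short of the test (limma adjusted p = 0.786). Gkn3, another arterial marker, was read in 45 of 50 and 10 of 14 and averaged 1628 and 1547 CPM. The counts out of 50 and 14 are of cells pooled over samples, most unread arterial-led cells are young, and no test was made on these counts.

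Emcn had a lower mean level in Vcam1-read cells in each of the 6 matched combinations. In arterial-led cells it averaged 59.2 against 487 CPM in young pool 1 and 56.3 against 288 CPM in young pool 2. In venous-led cells it averaged 352 against 663 CPM in young pool 1, 442 against 488 CPM in aged pool 1 and 256 against 588 CPM in aged pool 2. In capillary-led cells of young pool 2 it averaged 103 against 242 CPM. With segments balanced its log2 difference was -1.13, short of the test (limma adjusted p = 0.592). The gap was small in aged pool 1, where 3 unread venous-led cells entered. The share of cells with a read did not follow the means throughout. Emcn was read in 8 of 50 Vcam1-read and 5 of 14 unread arterial-led cells, and in 7 of 12 and 17 of 22 capillary-led cells. In venous-led cells it was read in 18 of 26 and 11 of 21. The arterial-led cells of young pool 2 had a read in 5 of 20 and 1 of 5, so that unread mean rests on 1 cell.

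Next, the share of cells with a read was set beside the Vcam1-unread cells of the neg gate, with each cell thinned to 275301 reads. This kept 81 Vcam1-read and 49 unread pos cells and 118 unread neg cells. Pooled over samples, the unread pos cells lay between the other two for arterial genes. Mgp was read in 69.1%, 38.8% and 8.5% of Vcam1-read pos, unread pos and unread neg cells. Gkn3 was read in 51.9%, 18.4% and 6.8%, and Cytl1 in 35.8%, 10.2% and 0.8%. Olfml2a was different, at 37.0%, 2.0% and 2.5%. Emcn was read in 35.8%, 59.2% and 73.7% and Car4 in 25.9%, 49.0% and 80.5%. Mfsd2a, the lipid transporter of capillaries, was close in both pos classes (17.3% and 18.4%) and at 52.5% in unread neg cells. Without thinning, the values were 69.3%, 40.4% and 12.7% for Mgp and 36.4%, 3.5% and 3.2% for Olfml2a. By pool and unthinned, the order did not hold throughout. In aged pool 1 Mgp was read in 42.9% of both pos classes. Cytl1 was read there in 14.3% of Vcam1-read and 28.6% of unread pos cells, and Car4 in 42.9% and 14.3%. In young pool 2 unread pos cells lay below unread neg cells for Gkn3 (15.8% and 17.6%) and Cytl1 (5.3% and 5.9%). Young pool 1 and aged pool 2 kept the order for these genes, and Emcn kept it in every pool. Cldn5 was read in 98.8%, 98.0% and 98.3% of the thinned cells.

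**Figure D5:**
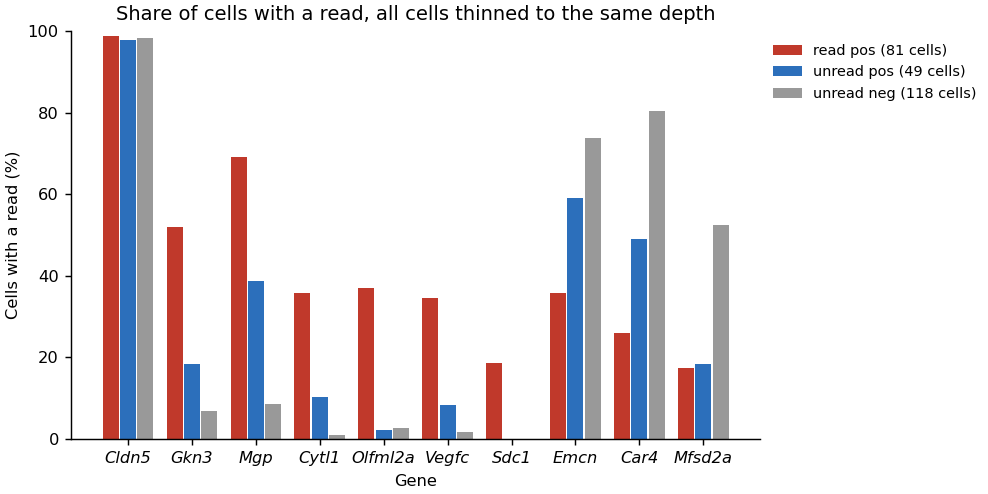
Share of cells with a read of each gene (percent) after thinning to the same depth, in Vcam1-read pos, Vcam1-unread pos and Vcam1-unread neg cells pooled over samples. Mgp and Gkn3 descend from Vcam1-read pos to unread neg cells, Emcn and Car4 ascend, and Sdc1 is at 0 in both unread sets.

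Within young pools, 0 genes passed edgeR and 228 (2.25%) had an unadjusted p under 0.05, 123 higher (1.22%) and 105 lower (1.04%). The genes named for this contrast were Creg1, Cytl1 and Vegfc on the higher side and Itm2a, Slc6a6 and Golga1 on the lower. Creg1, a secreted glycoprotein, stood at 100.4 and 161 CPM in Vcam1-read sums and had no read in the young unread sums, whereas aged sums had 80.8 and 189 against 65.6 and 83.7 CPM. Golga1, a Golgi protein, had no read in the young Vcam1-read sums and stood at 15.1 and 112 CPM in the unread. It was read in 13 cells in all.

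Within aged pools, 0 genes passed edgeR and 851 (8.42%) had an unadjusted p under 0.05, 765 higher (7.57%) and 86 lower (0.851%), on 15 unread cells. Maged1, a regulator of neurotrophin receptor signalling, stood at 372 and 309 CPM in Vcam1-read sums and at 0 in both unread sums, against 199.8 and 143 versus 160 and 219 CPM in young pools. Cers5, a ceramide synthase, stood at 302 and 242 against 0 and 0 CPM in aged pools. Nsmaf, Stard8 and Cd34 were the genes named as lower.

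The test of a difference between ages called 0 genes in edgeR, with 801 (7.92%) at an unadjusted p under 0.05, 670 with a higher Vcam1-read minus unread log2 difference in aged than in young pools (6.63%) and 131 with a lower one (1.3%). DESeq2 called 1247. Maged1, Cers5 and Bag5, a chaperone regulator, were named among those with a higher difference in aged pools, and all 3 had no read in the aged unread sums. Vegfc, the mitochondrial carrier gene Sfxn1 and the DNA repair helicase gene Ercc3 were named among those with a lower one. Sfxn1 stood at 121 and 181 against 1.07 and 0.38 CPM in young pools and at 79.3 and 135 against 64.8 and 90.9 CPM in aged pools.

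Promoters of the genes that stood apart are shown for the letters around their start sites, as upstream windows of 250 bases from RefSeq (GRCm38.p6). Of the 8 genes named as higher, 7 matched the table, as did 5 of the 8 named as lower. The windows are written 5′ to 3′ on the gene's strand. Sdc1 (chr12:8771146-8771395, plus strand), Olfml2a (chr2:38931730-38931979, plus strand) and Emcn (chr3:137340828-137341077, plus strand) had sums that did not overlap between the classes, as did Tm4sf1 (chr3:57301989-57302238, minus strand), whose window held a motif match, in capitals.
Sdc1: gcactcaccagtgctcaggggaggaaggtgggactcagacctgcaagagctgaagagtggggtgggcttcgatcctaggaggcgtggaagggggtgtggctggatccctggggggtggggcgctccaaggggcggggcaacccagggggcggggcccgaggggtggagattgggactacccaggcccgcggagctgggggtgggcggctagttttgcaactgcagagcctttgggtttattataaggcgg
Olfml2a: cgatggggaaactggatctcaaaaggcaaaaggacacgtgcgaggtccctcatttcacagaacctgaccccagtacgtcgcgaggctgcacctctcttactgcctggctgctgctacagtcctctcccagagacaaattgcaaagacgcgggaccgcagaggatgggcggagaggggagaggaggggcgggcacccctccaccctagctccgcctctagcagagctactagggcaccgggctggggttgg
Emcn: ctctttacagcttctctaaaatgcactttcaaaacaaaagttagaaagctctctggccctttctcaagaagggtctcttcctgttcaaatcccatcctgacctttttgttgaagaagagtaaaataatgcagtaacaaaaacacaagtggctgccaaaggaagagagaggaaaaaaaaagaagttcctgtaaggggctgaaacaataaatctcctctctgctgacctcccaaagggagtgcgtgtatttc
Tm4sf1: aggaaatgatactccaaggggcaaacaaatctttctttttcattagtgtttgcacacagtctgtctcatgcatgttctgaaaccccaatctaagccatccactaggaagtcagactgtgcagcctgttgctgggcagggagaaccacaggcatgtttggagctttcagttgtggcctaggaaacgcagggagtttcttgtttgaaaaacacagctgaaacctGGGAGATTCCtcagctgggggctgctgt

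The motifs searched on both strands were TGGGAA, the core bound by the Notch effector RBPJ, and GGGNNNTTCC, a pattern of NF-kB sites. TGGGAA was in 21.6% and GGGNNNTTCC in 4.65% of all 32851 windows of this length. Among the windows of the genes named as higher, 0 of 8 held TGGGAA and 1 of 8 held GGGNNNTTCC, that of Tm4sf1. Among those named as lower, 0 of 7 held either. In the arterial list, 3 of 21 windows held TGGGAA and 2 held GGGNNNTTCC. A match describes the letters and is not a bound site.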

How the data were processed

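The authors deposited a single table of raw counts, 11463 genes in 316 cells; whole numbers and totals that vary widely from cell to cell show the unit. Bowtie 0.12.2 and the builds mm10 and GRCm38 are named, per the submitters' processing notes, without a role. The sources used here give no counting tool, annotation or strand setting. Per the labels' protocols, each pool combines the hippocampi of 4 mice, which were digested with enzymes and sorted. Both classes of a pool share their mice, so the pool pairs them, although deviations of same-pool sums correlated by only 0.0210 in young and -0.0143 in aged pools. The main fit has no block, and the pool as a block is an alternative. Values of p measure the spread between 4 pools.

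Cells with at least 1000 detected genes were classed by a Vcam1 count of at least 1 or of 0. Without the Vcam1 row, the 8 sums were tested by quasi-likelihood in edgeR 4.0.16 under R 4.3.3, after filterByExpr and TMM, with 1 coefficient per age and class and Benjamini-Hochberg adjustment (threshold 0.05). DESeq2 1.42.0 and limma 3.58.1 served as alternatives, with other size factors and filters, thinned cells, other cell and class minimums, balanced segments and each pool left out. A further edgeR fit had terms for pool, segment and class. CPM came from the deposited counts and effective library sizes. Depth and segment shares were compared across pools with two-sided exact permutation tests. No doublet caller was run on these single sorted cells. The code was tested on simulated data with 200 changed genes.

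Genes were named by smallest p, 8 per direction over all pools and 3 for the other contrasts, given at least 32 CPM in the higher class, a read in at least 10 cells and the same sign in every pool concerned. Up to 4 members per list described and genes overlapping a named gene were added, and genes without an established symbol were passed over. A gene that this rule names is not reported here. Genes given within segments and in the neg gate were picked after their values were seen, and the fit with 1 class coefficient was added then too. Of 11462 symbols, 11223 matched GENCODE M21. The cells, lists and tests were chosen with earlier results of these data known.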

Additional observations from a re-analysis of the deposited data

Results flagged for a closer look

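Of 42 groups of 4 pools examined, 4 had a sample far from the other 3; chance alone marks about 1 group in 20. Median reads per Vcam1-read cell were 888377 in young pool 1, against 472992 to 502820 in the other pools. The arterial share of unread cells was 12.5% in aged pool 2, where 1 of 8 cells was arterial-led, against 26.1% to 28.6% elsewhere. Nsmaf stood at 10.7 CPM in the Vcam1-read sum of young pool 1, against at most 0.996 CPM in the others, and 91.9% of its reads in that class came from a single cell. Dhdds stood at 16.7 CPM in the Vcam1-read sum of young pool 2, against at most 2.16 CPM in the others.

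The fibroblast list score differed in direction between ages. Vcam1-read minus unread cells gave 0.311 and 0.203 in the young pools and -0.011 and -0.593 in the aged pools, on the log2(CPM + 1) scale over 4 genes. This difference between ages was not tested.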

How the results depend on the processing

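The count of genes past the test stayed at 0 for the contrast over all pools under every alternative run in edgeR or limma, with 178 to 1534 genes at an unadjusted p under 0.05. Those unadjusted counts were 201 and 221 without young pool 1 or 2 and 1534 and 1386 without aged pool 1 or 2, against 848. With the replicate block edgeR called 0 genes in each of the 4 contrasts, with 264, 62, 333 and 240 at an unadjusted p under 0.05, and the block changed no call; with 1 class coefficient and the block there were 178. DESeq2 called 1250 genes over all pools, 343 in young pools, 1473 in aged pools and 1247 between ages; the cause was not tested. The median log2 fold change of all genes was 0.37 with TMM, 0.27 with RLE size factors, 0.85 with the block, 0.59 in thinned cells and 0.05 on mean log2(CPM + 1) per cell. With a minimum of 10 Vcam1 reads, the segment shares passed the unpaired exact test at 29.96 points (arterial) and -20.5 points (capillary), and the cause was not tested. The venous difference of -8.31 points was 0.102 in thinned cells. Of 266 values of named genes under alternatives, 3 changed sign, all with segments balanced: Mgp (-0.16), Tm4sf1 (-0.31) and Itm2a (0.015). The fit with a segment term is not among these values. In it Igfbp3 (-3.05), Tm4sf1 (-0.18) and Itm2a (0.043) changed sign. Without aged pool 2 the arterial list stood 0.92 above all genes, against 1.39, and 0.78 in thinned cells. Leaving out 1 pool gives at best an exact p of 0.1 for shares. The precision is limited by the 7 and 8 unread cells of the aged pools.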
